A study of Homo sapiens with 10 samples.

Results

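The genes described here are 9 members of the interferon response circuit, namely the transcription factor subunits STAT2 and IRF9, the interferon regulatory factors IRF7, IRF1 and IRF2, the signalling inhibitor SOCS1, and the guanylate-binding protein genes GBP1, GBP2 and GBP3. They were chosen by symbol from tables of 36687 genes, and all 9 were found and passed the filter on low counts that left 15727 genes for testing. The libraries came from MDA-MB-231, a human breast adenocarcinoma line with wild-type genotype in the labels, that was given the kinase inhibitor dasatinib, which blocks SRC and ABL family kinases. Dasatinib was given for 6, 12, 24 or 48 h, with 2 biological replicates per time. A further 2 replicates titled as sham served as the untreated 0 h group, although their treatment field also names the drug. No untreated libraries were matched to the later times, so drug and time in culture cannot be told apart, and every comparison with 0 h shares the same 2 libraries.

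In interferon signalling, type I and type III interferons bind receptors that carry JAK family kinases, which phosphorylate STAT proteins, STAT2 among them. STAT2 acts with IRF9 in a complex called ISGF3, which binds the interferon-stimulated response element (ISRE). Interferon gamma acts mainly through the gamma-activated site (GAS). IRF1 is an activator at related elements, IRF2 is best known as its antagonist at the same elements, and IRF7 drives interferon genes and is itself interferon-inducible. SOCS1 binds JAK kinases and dampens the signal, and guanylate-binding proteins are large GTPases of cell-autonomous defence that interferons induce in many cell types.

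Promoter windows, from 250 bases before to 50 bases after the gene start, were available from RefSeq (GRCh38.p14) for 6 of the 9 genes (STAT2, IRF9, IRF1, SOCS1, GBP1 and GBP3). An ISRE core, searched on both strands as TTTC, any 2 bases and TTTC, was present in 3 of these 6 windows, against 3.57% of 35114 promoter windows in the genome. A GAS motif, searched on both strands as TTCNNNGAA, was present in 3 of the 6, against 7.66% of all windows. Below, capitals mark the motif matches. GBP1 and GBP3 are shown because they hold the same ISRE core letters and neighbour each other on chromosome 1, IRF1 because it holds a GAS motif, and STAT2 because it changed most among the 6 and held neither motif in this window. The windows are, on the minus strand, chr1:89065159-89065458 for GBP1, chr1:89022817-89023116 for GBP3, chr5:132490724-132491023 for IRF1 and chr12:56360058-56360357 for STAT2.
GBP1: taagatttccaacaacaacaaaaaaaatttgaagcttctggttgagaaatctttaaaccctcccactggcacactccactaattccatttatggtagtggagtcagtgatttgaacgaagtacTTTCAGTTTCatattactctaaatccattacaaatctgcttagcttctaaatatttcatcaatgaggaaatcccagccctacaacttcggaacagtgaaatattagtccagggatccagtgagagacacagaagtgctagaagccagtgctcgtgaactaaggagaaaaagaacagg
GBP3: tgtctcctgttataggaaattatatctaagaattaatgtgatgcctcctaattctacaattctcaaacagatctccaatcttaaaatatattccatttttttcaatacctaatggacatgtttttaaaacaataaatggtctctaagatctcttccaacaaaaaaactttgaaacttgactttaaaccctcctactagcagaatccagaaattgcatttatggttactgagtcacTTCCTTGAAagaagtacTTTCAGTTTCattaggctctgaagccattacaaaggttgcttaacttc
IRF1: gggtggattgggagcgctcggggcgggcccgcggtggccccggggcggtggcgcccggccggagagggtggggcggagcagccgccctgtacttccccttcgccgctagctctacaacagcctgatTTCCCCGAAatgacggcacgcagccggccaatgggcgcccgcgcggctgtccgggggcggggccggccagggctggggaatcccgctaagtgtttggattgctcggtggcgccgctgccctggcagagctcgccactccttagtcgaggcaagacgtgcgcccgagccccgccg
STAT2: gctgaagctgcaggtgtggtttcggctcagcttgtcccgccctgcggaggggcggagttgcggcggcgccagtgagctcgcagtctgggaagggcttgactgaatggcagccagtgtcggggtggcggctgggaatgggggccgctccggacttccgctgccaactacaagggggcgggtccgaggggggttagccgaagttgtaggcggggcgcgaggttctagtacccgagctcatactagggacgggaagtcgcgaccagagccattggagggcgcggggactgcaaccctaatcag
The ISRE core lay at -127 to -118 in GBP1 and at 3 to 12 in GBP3, counted from the gene start, and both read TTTCAGTTTC. GBP3 also held a GAS motif at -15 to -7, reading TTCCTTGAA, and IRF1 held one at -124 to -116, reading TTCCCCGAA. Of the windows not printed, IRF9 held a GAS motif at -63 to -55 and SOCS1 an ISRE core at -113 to -104 on the strand opposite to the gene. A motif match is a description of the letters in the window, and binding was not measured.

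Library totals ranged from 40942913 to 49133774 counts. The library 12 h replicate 1 stood apart, since its highest correlation with any other library was 0.955, against 0.983 to 0.987 for the other 9. The labelled cell type was checked against its markers. All 6 basal B markers passed the filter, with VIM between 633 and 913 TPM (a level scaled for transcript length and library), and PGR, CD3E and MS4A1 were at 0 in all libraries. In bulk RNA, a change in the number of expressing cells and a change in RNA per cell cannot be told apart. The summed level of 10 leukocyte markers was 3.51 to 4.90 TPM at 48 h, against 0.680 to 1.299 TPM at 0 h, nearly all of it CD14, and 2 of the 10 passed the filter. The summed level of the 6 basal B markers was 2303 to 2307 TPM at 48 h, against 3320 to 3384 TPM at 0 h. The summed level of 7 luminal markers was 138 to 141 TPM at 48 h, against 39.8 to 42.6 TPM at 0 h. Unlike PGR, 5 of these 7 passed the filter, with SPDEF the highest at 14.5 to 95.3 TPM over all libraries. The part of these shifts in the results below was not tested.

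Per transcript length, the 9 genes spanned a wide range in untreated cells. At 0 h IRF7 (92.4 ± 8.18 TPM, SD, n = 2) and GBP3 (90.3 ± 1.31 TPM) were highest, with overlapping libraries, followed by GBP1 (73.0 ± 1.21 TPM), STAT2 (38.6 ± 0.938 TPM), IRF2 (34.2 ± 2.71 TPM) and GBP2 (24.2 ± 3.31 TPM). IRF1 (7.45 ± 0.565 TPM), IRF9 (5.35 ± 0.614 TPM) and SOCS1 (3.30 ± 1.32 TPM) were lowest. Apart from IRF7 and GBP3, no neighbours in this order overlapped. At 48 h the order was IRF7 (139 ± 2.85 TPM), GBP2 (104 ± 0.642 TPM), STAT2 (89.8 ± 6.14 TPM), GBP3 (87.2 ± 5.81 TPM), GBP1 (72.4 ± 7.19 TPM), IRF2 (42.3 ± 1.11 TPM), IRF1 (9.22 ± 1.17 TPM), IRF9 (7.34 ± 0.754 TPM) and SOCS1 (3.65 ± 0.0504 TPM). STAT2 and GBP3 overlapped at 48 h, and GBP2 had moved above GBP3, GBP1, STAT2 and IRF2.

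**Figure D1:**
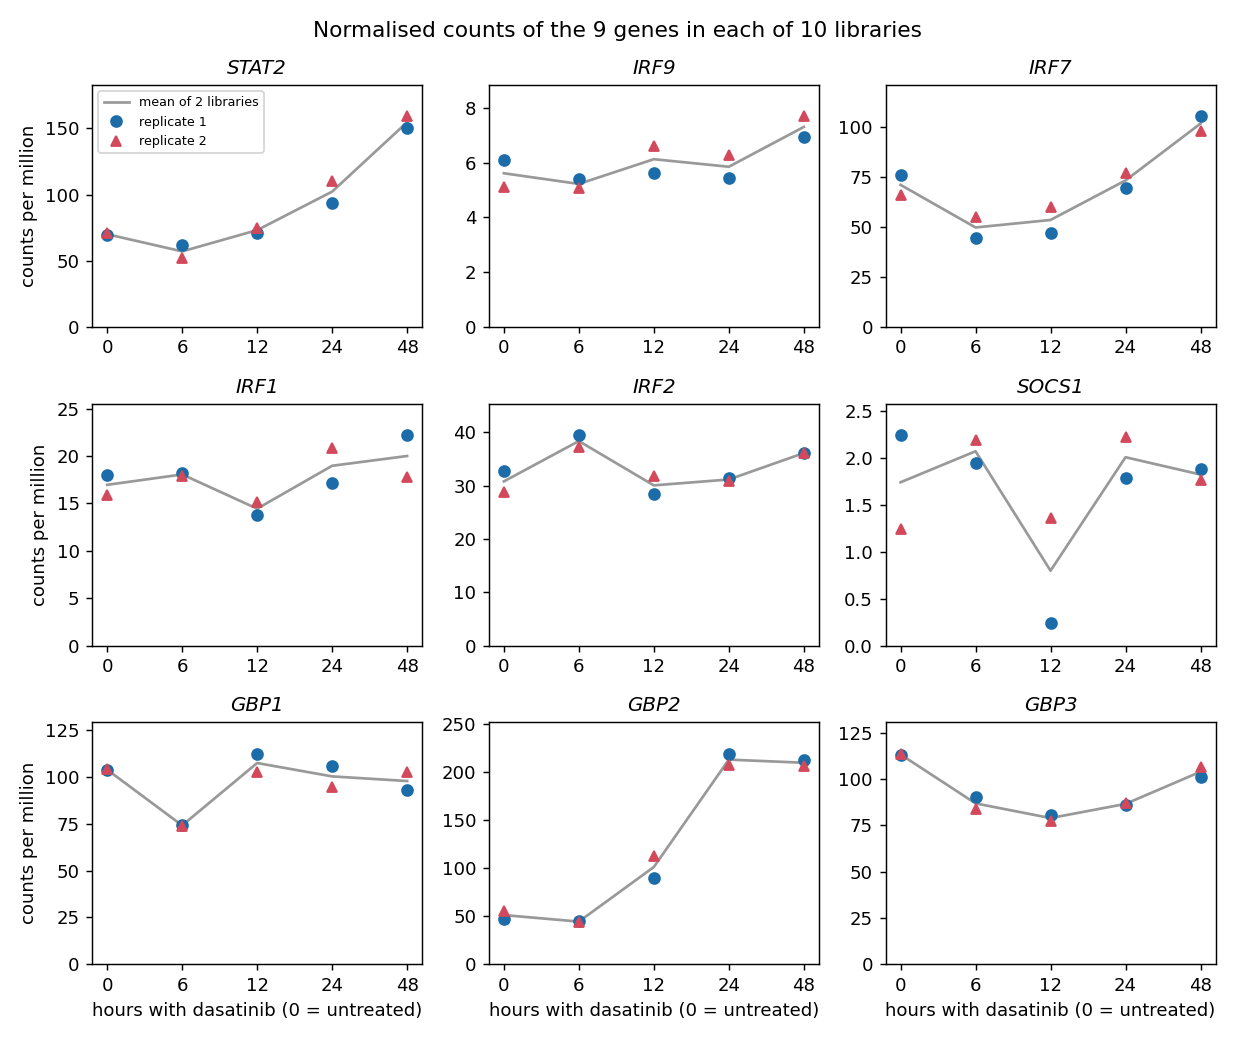
CPM (counts scaled to library size, y axis of each panel, from 0) of the 9 genes against hours with dasatinib, with 0 h untreated. Circles are replicate 1, triangles replicate 2 and lines the mean of the 2 libraries; GBP2 lies between 44.2 and 55.6 CPM at 0 and 6 h and between 206 and 219 CPM at 24 and 48 h, and SOCS1 has 1 low library at 12 h.

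To determine which of the 9 genes changed during dasatinib treatment, each time was compared with 0 h by edgeR's quasi-likelihood test, with p-values adjusted by Benjamini-Hochberg over the 15727 genes and called under 0.05. At 6 h, 0 of the 9 genes were higher and 1 was lower, where 2.73% of all genes were called (1.24% higher and 1.49% lower). At 12 h, 1 was higher and 1 lower, where 7.15% of all genes were called (3.93% higher and 3.22% lower). At 24 h, 2 were higher and 1 lower, where 20.0% of all genes were called (9.73% higher and 10.2% lower). At 48 h, 3 were higher and 0 lower, where 32.3% of all genes were called (16.0% higher and 16.3% lower). At 48 h the called share of the 9 was thus close to that of all genes. The median log2 fold change of the 9 genes was -0.206 after 6 h, -0.035 after 12 h, 0.06 after 24 h and 0.238 after 48 h, and the median over all genes was between 0.001 and 0.021. With no adjustment, p was under 0.05 for 5 of the 9 and for 15.7% of all genes at 6 h, and for 3 of the 9 at each later time, where it was so for 24.4% of all genes at 12 h, 32.6% at 24 h and 42.7% at 48 h. DESeq2 on all libraries called 3 of the 9 at 6 h, where it called 6.92% of 13158 genes. IRF9, IRF1, IRF2 and SOCS1 were called at no time in edgeR's fit of all libraries.

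**Figure D2:**
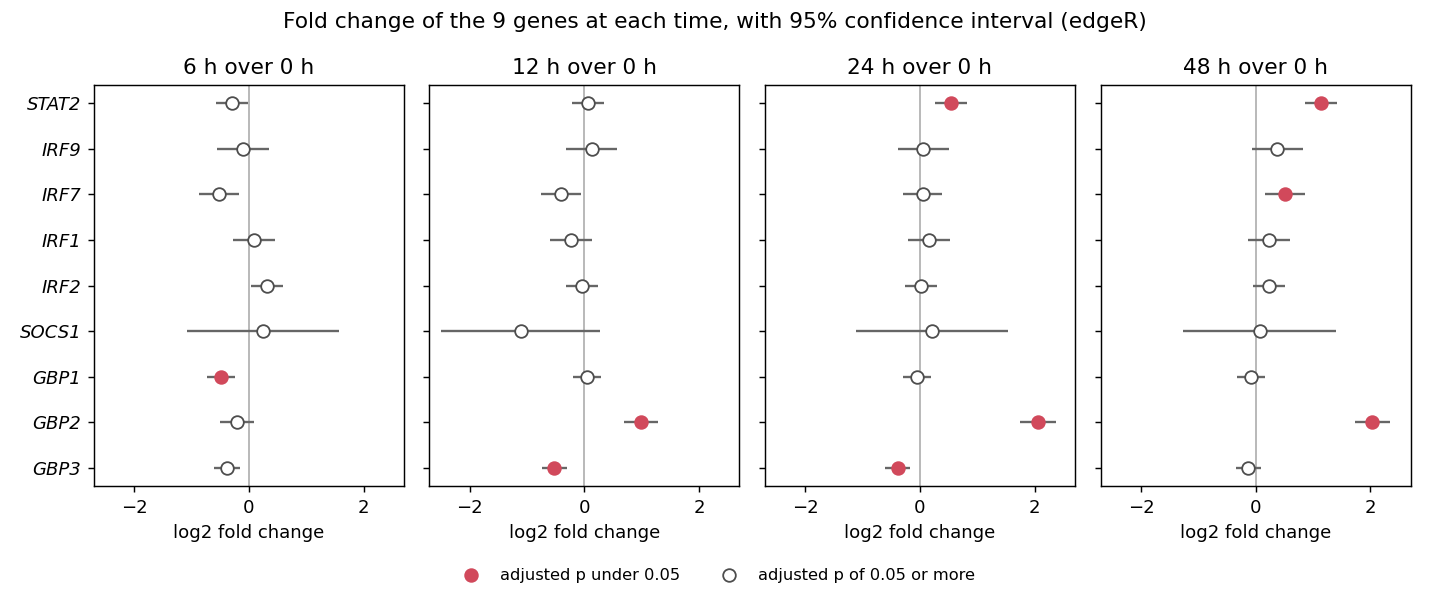
Log2 fold change (x axis) of each of the 9 genes at 6, 12, 24 and 48 h over 0 h, with 95% confidence intervals as bars. Filled points have an adjusted p under 0.05 in edgeR's test; GBP2 stands near 2 at 24 and 48 h, and STAT2 reaches 1.14 at 48 h.

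STAT2, the ISGF3 subunit that carries its transactivation domain, rose at 24 and 48 h. It had 69.3 and 70.7 CPM at 0 h, 62.0 and 52.0 CPM at 6 h, 71.2 and 75.0 CPM at 12 h, 94.0 and 110.4 CPM at 24 h, and 150.3 and 159 CPM at 48 h. Both 48 h libraries lay above both 24 h libraries, which lay above all earlier ones. After 24 h the log2 fold change was 0.55 ± 0.12 (SE, adjusted p = 0.0119). After 48 h it was 1.14 ± 0.13 (adjusted p = 0.000107), a 2.21-fold increase. At 6 h it was -0.30 ± 0.12 (adjusted p = 0.286). The 24 h call was lost without 0 h replicate 1 (adjusted p = 0.102), 0 h replicate 2 (0.087) or 24 h replicate 2 (0.137), while the 48 h call remained in each of the 10 fits that left out 1 library. Without either 12 h library, STAT2 was also lower at 6 h (log2 fold change -0.29, adjusted p = 0.0198 without replicate 1 and 0.0186 without replicate 2).

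IRF9, which gives ISGF3 its DNA binding, was low at all times and passed no test in the fit of all libraries. Its libraries held 6.11 and 5.12 CPM at 0 h, 5.39 and 5.06 CPM at 6 h, 5.64 and 6.62 CPM at 12 h, 5.43 and 6.27 CPM at 24 h, and 6.92 and 7.69 CPM at 48 h. Both 48 h libraries were above both 0 h libraries, as they were for 37.7% of all genes, and the log2 fold change of 0.38 had an interval of -0.07 to 0.83 (adjusted p = 0.176). At 48 h against 6 h the log2 difference was 0.48 ± 0.20 (adjusted p = 0.0904), and it was called by edgeR on the 2 groups alone (adjusted p = 0.0353), in 2 limma fits on TPM (0.0398 and 0.0408) and without 12 h replicate 1 (0.0423) or 2 (0.0445). The ratio of STAT2 to IRF9 in TPM was between 5.95 and 7.99 in the 6 libraries up to 12 h. It was 10 and 10.2 after 24 h, and 12.55 and 11.95 after 48 h. In the annotation (GENCODE on GRCh38, chr14:24161234-24168043, plus strand), 23.9% of the IRF9 exon bases overlap a same-strand read-through gene, so reads there can be split between the genes.

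IRF7, the regulator that amplifies interferon gene transcription, ended above its starting level. It had 76.1 and 66.1 CPM at 0 h, 44.3 and 55.2 CPM at 6 h, 47.0 and 60.1 CPM at 12 h, 69.6 and 77.0 CPM at 24 h, and 105 and 98.2 CPM at 48 h. The 6 and 12 h libraries all lay below the 0 h libraries, those at 24 h overlapped them, and those at 48 h lay above all others. The increase at 48 h was called (log2 fold change 0.52 ± 0.16, adjusted p = 0.0277), whereas the values of -0.51 ± 0.16 at 6 h (adjusted p = 0.13) and -0.41 ± 0.16 at 12 h (adjusted p = 0.141) were not. The 48 h call was lost without any 1 of 0 h replicate 1 (adjusted p = 0.0698), 0 h replicate 2 (0.206), 24 h replicate 1 or 2 (0.0523 each, with the log2 fold change still 0.52), 48 h replicate 1 (0.159) or 48 h replicate 2 (0.0925). The value at 6 h was called with no filter on low counts (adjusted p = 0.0377) and with DESeq2 on all libraries (0.0497). DESeq2 (0.000313) and edgeR (0.00487) on the 2 groups alone called it too. Of the 9 alternatives that left out no single replicate, 9 called the 48 h value, 4 the 6 h value and 0 the 12 h value. Without 12 h replicate 2 the log2 fold change at 12 h was -0.60.

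IRF1 and IRF2, the activator and its antagonist, passed no test in the fit of all libraries, against 0 h or between times. IRF1 had 18.0 and 15.9 CPM at 0 h, 18.2 and 17.9 CPM at 6 h, 13.7 and 15.1 CPM at 12 h, 17.1 and 20.8 CPM at 24 h, and 22.2 and 17.8 CPM at 48 h. Its 48 h and 0 h libraries overlapped, and the interval of the log2 difference was -0.13 to 0.60. IRF2 had 32.7 and 28.8 CPM at 0 h, 39.4 and 37.2 CPM at 6 h, 28.3 and 31.7 CPM at 12 h, 31.3 and 30.9 CPM at 24 h, and 36.1 and 36.0 CPM at 48 h. It was the 1 gene of the 9 whose 6 h libraries both lay above the 0 h libraries, as 29.3% of all genes did, with a log2 fold change of 0.32 ± 0.12 (adjusted p = 0.251). That value was called without 12 h replicate 1 (adjusted p = 0.0225) or 12 h replicate 2 (0.0229). At 24 h against 6 h the log2 difference of IRF2 was -0.30 ± 0.12 (adjusted p = 0.128), and it was called with DESeq2 (adjusted p = 0.0258) and edgeR (0.0137) on the 2 groups alone and without 12 h replicate 1 (0.0154) or 2 (0.016). The ratio of IRF1 to IRF2 in TPM lay between 0.182 and 0.266 in all 10 libraries. In the annotation, 22.9% of the IRF1 exon bases overlap the antisense gene IRF1-AS1. The sources used here do not say whether the counting used strand, so reads of the pair cannot be told apart.

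SOCS1, the feedback inhibitor, was the least abundant of the 9, with 10 to 98 counts per library. It had 2.24 and 1.24 CPM at 0 h, 1.95 and 2.19 CPM at 6 h, 0.238 and 1.36 CPM at 12 h, 1.79 and 2.23 CPM at 24 h, and 1.88 and 1.77 CPM at 48 h. The 10 counts were in 12 h replicate 1, the library that stood apart, against 62 counts in 12 h replicate 2. The log2 fold change at 48 h was 0.07, with an interval of -1.26 to 1.39. Its SE was 0.596 with all libraries and 0.354 without 12 h replicate 1. At 12 h it was -1.11 ± 0.62 (adjusted p = 0.299), and without 12 h replicate 1 it was -0.35 (adjusted p = 0.671). Without 12 h replicate 2 it was -2.86 (adjusted p = 0.000223), a value that rests on the 10 counts.

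The 3 GBP genes lie side by side on the minus strand of chromosome 1, at chr1:89006679-89022894 (GBP3), chr1:89051882-89065360 (GBP1) and chr1:89106132-89150456 (GBP2), and they took different courses. GBP2 had 46.5 and 55.6 CPM at 0 h, 44.4 and 44.2 CPM at 6 h, 89.5 and 113 CPM at 12 h, 219 and 207 CPM at 24 h, and 213 and 206 CPM at 48 h. From 12 h on, all libraries lay above those at 0 and 6 h, and those at 24 and 48 h overlapped. After 12 h the log2 fold change was 0.98 ± 0.13 (adjusted p = 0.00308), and after 24 h it was 2.06 ± 0.14 (adjusted p = 3.25e-05). After 48 h it was 2.03 ± 0.14 (adjusted p = 8.37e-06), a 4.10-fold increase. By log2 fold change at 24 h, GBP2 ranked 513 of 15727 genes. The 12 h call was lost without 0 h replicate 1 (log2 fold change 0.85, adjusted p = 0.0653) and with edgeR on the 2 groups alone (0.233), while the 24 and 48 h calls remained in all 10 such fits.

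GBP1 was lower at 6 h alone among the 4 times. It had 103 and 104 CPM at 0 h, 74.2 and 74.0 CPM at 6 h, 112 and 103 CPM at 12 h, 106 and 94.7 CPM at 24 h, and 92.9 and 103 CPM at 48 h. The 6 h libraries lay below all other libraries, and the log2 fold change at 6 h was -0.49 ± 0.11 (adjusted p = 0.0473). This call sat close to the threshold. It was lost without any 1 library of the 0, 6, 24 or 48 h groups (adjusted p = 0.0933 to 0.352) at a log2 fold change of -0.49 to -0.48, and it held without either 12 h library. It was also lost with DESeq2-type size factors (adjusted p = 0.0517) and in 3 limma fits on TPM (0.0836 to 0.141). At 48 h the log2 difference was -0.09, with an interval of -0.33 to 0.16.

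GBP3 was called lower at 12 and 24 h, and its log2 fold change at 6 h was close to that at 24 h. It had 113 and 114 CPM at 0 h, 90.0 and 83.6 CPM at 6 h, 80.5 and 77.3 CPM at 12 h, 86.2 and 86.9 CPM at 24 h, and 101 and 107 CPM at 48 h. Every treated library lay below both 0 h libraries. After 12 h the log2 fold change was -0.52 ± 0.10 (adjusted p = 0.0148), and after 24 h it was -0.39 ± 0.10 (adjusted p = 0.0208). The 6 h value of -0.38 ± 0.10 (adjusted p = 0.0797) and the 48 h value of -0.12 ± 0.10 (adjusted p = 0.377) did not pass. The 12 h call was lost without 0 h replicate 1 (adjusted p = 0.121) or 2 (0.107), and the 24 h call without 0 h replicate 1 (0.119) or 2 (0.116) or 24 h replicate 1 (0.136) or 2 (0.13). Fits of the 2 groups alone with DESeq2 (0.354) or edgeR (0.376) lost the 12 h call, a fit without the filter on low counts lost the 24 h call (0.0634), and 3 limma fits on TPM lost both (0.0682 to 0.141). The 6 h value had an unadjusted p of 0.00319 in edgeR's fit of all libraries, against 0.00294 for the 24 h value. DESeq2 on all libraries called the 6 h value (adjusted p = 0.0181), as did DESeq2 (0.000111) and edgeR (0.00242) on the 2 groups alone. It was -0.38 without 12 h replicate 1 or 2.

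**Figure D3:**
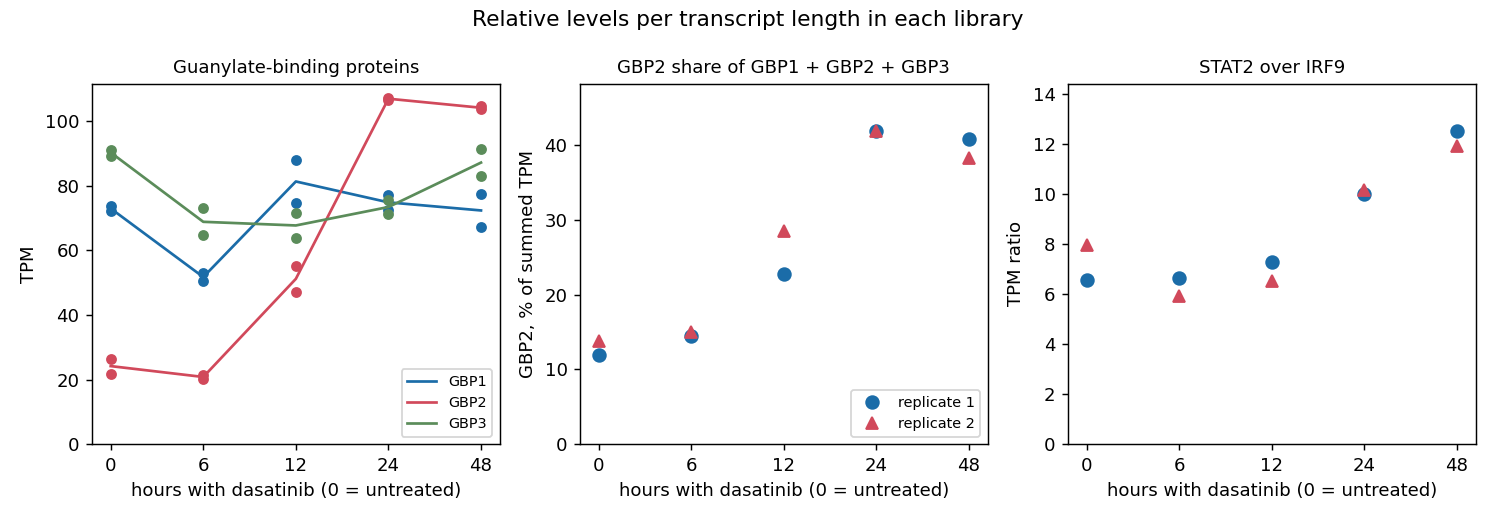
Left, TPM of GBP1, GBP2 and GBP3 in each library, with lines through the means; middle, GBP2 as a percentage of the summed TPM of the 3 genes; right, the TPM ratio of STAT2 to IRF9, all against hours with dasatinib (0 h untreated). GBP2 makes up 11.9 to 13.8% of the sum at 0 h and 38.3 to 41.95% at 24 and 48 h.

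As a share of the summed TPM of the 3 genes, GBP2 was 11.9% and 13.8% in untreated cells, 14.5% and 14.96% after 6 h, and 22.8% and 28.5% after 12 h. It then made up 41.95% and 41.85% after 24 h, and 40.8% and 38.3% after 48 h. The shares at 24 and 48 h lay above all earlier ones. These genes are paralogs, so shared sequence was counted. No window of 150 bases, the read length, was identical between transcripts of these 3 genes. GBP2 shared 6.52% of its windows with GBP7, whose count was at most 2 in any library. In the annotation, 8.6% of the GBP2 exon bases overlap GBP7 on the same strand. Shared windows there need not come from paralogy, and reads there cannot be told apart. In windows of 50 bases, 7.76% of GBP1, 8.82% of GBP2 and 4.41% of GBP3 windows were shared with a family member, including the pseudogene GBP1P1. Among the other guanylate-binding protein genes 3 of 4 were tested, and 1, GBP4, was higher at 48 h (log2 fold change 1.92 ± 0.58, adjusted p = 0.0283), on 139 and 54 counts at 48 h, against 16 and 30 counts at 0 h.

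Differences between treated times are set against no 0 h library, although the 0 h libraries enter the shared error of the fit, and they share their 6, 24 and 48 h libraries with each other. At 24 h against 6 h, 4 of the 9 genes were higher and 0 lower, where 18.6% of all genes were called. These were GBP2 (log2 difference 2.26 ± 0.14, adjusted p = 2.51e-05), STAT2 (0.84 ± 0.13, adjusted p = 0.00158), GBP1 (0.44 ± 0.11, adjusted p = 0.0205) and IRF7 (0.56 ± 0.16, adjusted p = 0.0321). At 48 h against 6 h, 4 were higher and 0 lower, where 33.2% of all genes were called. They were GBP2 (2.24 ± 0.14, adjusted p = 5.07e-06), STAT2 (1.44 ± 0.13, adjusted p = 2.95e-05), IRF7 (1.03 ± 0.16, adjusted p = 0.000717) and GBP1 (0.40 ± 0.11, adjusted p = 0.0183). At 48 h against 24 h, STAT2 alone was higher (0.60 ± 0.12, adjusted p = 0.0305), where 3.18% of all genes were called. GBP2 differed by -0.02 between 48 and 24 h, with an interval of -0.32 to 0.27.

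Several of these calls were lost when 1 library was left out, in part with the difference nearly as before. Between 24 and 6 h, the IRF7 call was lost without any 1 library of the 0, 6, 24 or 48 h groups (adjusted p = 0.0551 to 0.27). The IRF7 log2 difference was 0.56 without a 0 or 48 h library, and 0.40 to 0.72 without a 6 or 24 h library. The GBP1 call was lost without any 1 of the 6 or 24 h libraries (adjusted p = 0.0626 to 0.19), at a difference of 0.35 to 0.51. Between 48 and 6 h, the GBP1 call was lost without 6 h replicate 1 (adjusted p = 0.108), 6 h replicate 2 (0.111) or 48 h replicate 2 (0.15). Between 48 and 24 h, the STAT2 call was lost without any 1 library outside the 12 h group (adjusted p = 0.0566 to 0.357) and in 3 limma fits on TPM (0.0794 to 0.138). The STAT2 difference was 0.60 without a 0 or 6 h library, and 0.48 to 0.72 without a 24 or 48 h library. Without 12 h replicate 1, the calls between times also took in GBP3 at 48 h against 6 h (log2 difference 0.25, adjusted p = 0.00571) and, at 48 h against 24 h, IRF7 (0.47, adjusted p = 0.000579) and GBP3 (0.26, adjusted p = 0.0115). They did so too without 12 h replicate 2.

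The rest of the pathway was described by gene lists. Counts at 48 h against 0 h stand beside 32.3% of all genes called, 16.0% higher and 16.3% lower. Of 21 interferon ligand genes, 17, among them IFNB1 and IFNG, had no count in any library, where 3 counts correspond to 0.0597 to 0.0716 CPM. The 3 that were tested, the type III genes IFNL1, IFNL2 and IFNL3, were called at no time against 0 h. In 12 h replicate 1, the library that stood apart, they had 26, 40 and 6 counts, against 219, 92 and 116 in 12 h replicate 2. That gap enters the shared spread of the fit, and its part in the missing calls was not tested. IFNL2 was higher at 48 h against 6 h (log2 difference 1.21 ± 0.38, adjusted p = 0.0332), with 292 and 232 counts at 48 h, against 128 and 84 counts at 6 h. IFNL2 and IFNL3 are near-identical copies, so their reads can be split between them. IFNL1, named like IFNL2 after its values were seen, had 478 and 506 counts at 48 h, against 167 and 253 counts at 0 h (log2 fold change 1.12 ± 0.61, adjusted p = 0.193). Of 9 receptor and JAK kinase genes, 2 were higher at 48 h, the receptor chains IFNGR1 (0.67 ± 0.12, adjusted p = 0.00182) and IFNLR1 (0.46 ± 0.15, adjusted p = 0.0383), and 0 were lower.

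Among other STAT genes, STAT6, which acts in interleukin-4 signalling, was higher at 48 h (log2 fold change 0.49 ± 0.10, adjusted p = 0.00546), as was STAT3, which acts downstream of interleukin-6 family cytokines (0.36 ± 0.12, adjusted p = 0.0377). Of the 5 other IRF genes, 3 were tested and none passed, with a median log2 fold change of 0.053 at 48 h. Among the 3 genes for IRF2-binding co-repressors, IRF2BPL (1.298 ± 0.11, adjusted p = 2.78e-05) and IRF2BP2 (0.98 ± 0.11, adjusted p = 0.00013) were higher at 48 h.

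Of 16 other inhibitors of JAK-STAT signalling, 1 was higher and 4 were lower at 48 h. Of all genes, 16.0% were higher and 16.3% lower, so the called share of the 16 was close to that of all genes. PIAS3, an inhibitor of STAT3, was higher (0.98 ± 0.11, adjusted p = 0.000125), and the feedback inhibitors SOCS2 (-1.02 ± 0.14, adjusted p = 0.000422) and SOCS3 (-1.11 ± 0.25, adjusted p = 0.00741) and the phosphatase PTPN2 (-0.52 ± 0.12, adjusted p = 0.0089) were lower. Among 8 genes of nucleic acid sensing, 4 were higher, led by the RNA sensor IFIH1 (1.25 ± 0.15, adjusted p = 0.000204), and CGAS, the DNA sensor, was lower (-0.56 ± 0.12, adjusted p = 0.00621).

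Of 41 interferon-stimulated effector genes tested, 21 were lower after 6 h and 15 after 12 h, with 0 higher at either time. After 24 h 6 were higher, after 48 h 31 were higher, and 0 were lower at either time. Of all genes, 1.49% were called lower at 6 h and 3.22% at 12 h. Called higher were 9.73% at 24 h and 16.0% at 48 h. The effector counts moved with single libraries, and the share of all genes called moved in the same direction. A changed count in these fits is therefore not a result about the effectors alone. The 6, 24 and 48 h counts were smaller when 1 library of the compared groups was left out. The 12 h count was smaller with 1 of the 0 h libraries left out. At every time the count was larger with 1 of the 12 h libraries left out. DESeq2 on all libraries called 28 effectors lower at 6 h and 21 at 12 h, where it called 6.92% and 12.7% of all genes. It called 9 higher at 24 h (25.2% of all genes) and 36 at 48 h (34.7%). At 12 h, edgeR on the 2 groups alone called 0 effectors and 0 of 14603 genes. At 24 h, edgeR on the 2 groups alone called 18 effectors higher and 1 lower, where 43.9% of all genes were called. The median log2 fold change of this list was -0.755 at 6 h and 0.79 at 48 h, against 0.01 over all genes at both times. OAS2, which makes the activator of RNase L, had 318 and 299 CPM at 48 h, against 119 and 115 CPM at 0 h (log2 fold change 1.40 ± 0.10, adjusted p = 1.29e-05). UBA7, the activating enzyme for ISG15, rose by 1.80 ± 0.14 (adjusted p = 1.8e-05) and IFI44L by 1.53 ± 0.13 (adjusted p = 2.34e-05). Of 28 genes tested from a list of IRF1 and interferon gamma type targets, 8 were higher and 2 lower at 48 h, with a median of 0.545. The called share of these 28 was close to the 32.3% of all genes. The adhesion molecule ICAM1 led that list (log2 fold change 3.997 ± 0.27, adjusted p = 8.7e-06), from a low level of 35 and 50 counts at 0 h. CD274, which encodes PD-L1, was lower (-0.50 ± 0.12, adjusted p = 0.00814).

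**Figure D4:**
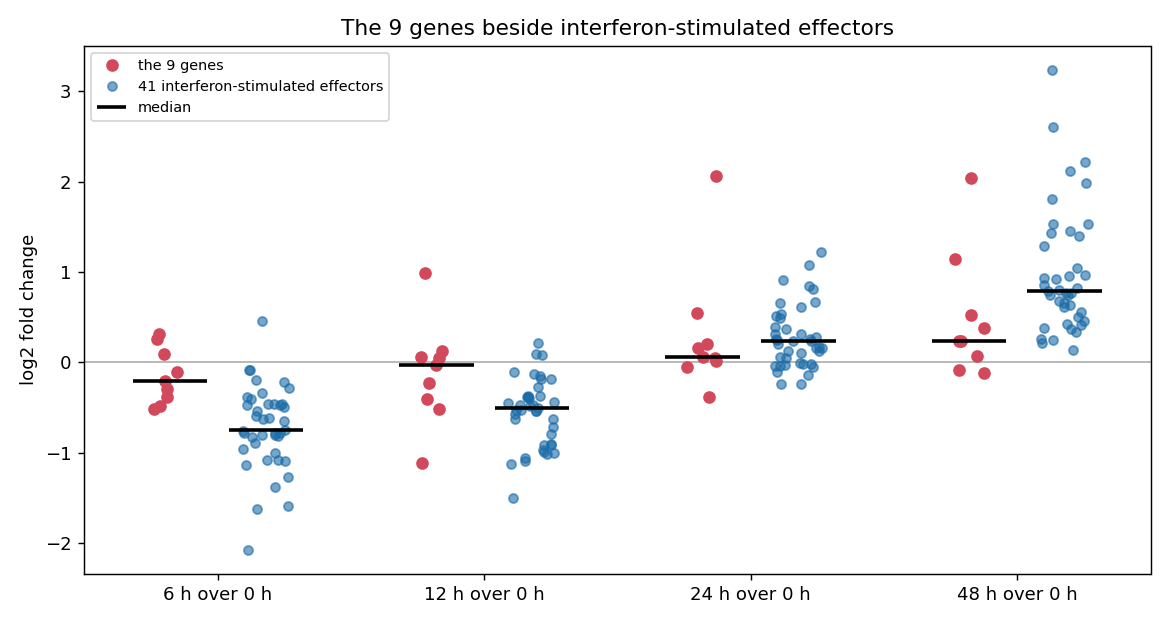
Log2 fold change over 0 h (y axis) at 6, 12, 24 and 48 h for the 9 genes (left column at each time) and for 41 interferon-stimulated effector genes (right column), with 1 point per gene and black bars at the medians. The median of the 9 genes is -0.206 at 6 h and 0.238 at 48 h, and that of the effectors is -0.755 and 0.79.

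Across the 10 libraries, which share the treatment times, Pearson's r of log2 CPM described which genes moved alike. Among the 9 genes it was highest for STAT2 with GBP2 (0.872), STAT2 with IRF7 (0.849) and STAT2 with IRF9 (0.815), and lowest for IRF2 with GBP1 (-0.798). GBP2 and GBP3 had an r of -0.116, and without 12 h replicate 1 it was -0.146. Among the 3 genes most like each member were XBP1 (0.990), SH3YL1 (0.987) and AMPD2 (0.984) for STAT2, and EPHA2 (0.974), MRAS (0.971) and OASL (0.968) for IRF7. Those reported were IDH1 (0.987) and OLFML2A (0.986) for GBP2, PNPT1 (0.978), SOX9 (0.970) and PRR16 (0.970) for GBP3, and ORC4 (0.935), NEK1 (0.922) and ZKSCAN2 (0.920) for GBP1. For IRF9, IRF1 and IRF2 the best matches were GEMIN8 (0.896), NAGLU (0.908) and DUSP10 (0.915). SOCS1, with its 1 low library, was most like GPX4 (0.976).

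**Figure D5:**
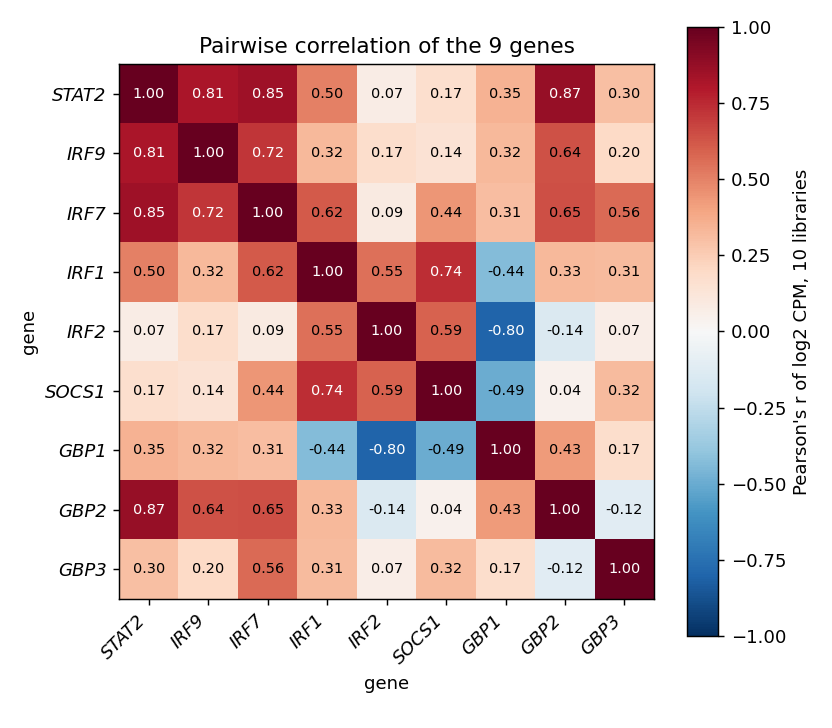
Pearson's r of log2 CPM over the 10 libraries for every pair of the 9 genes, in rows and columns, coloured from -1 (blue) to 1 (red). STAT2 with GBP2 (0.872) and with IRF7 (0.849) are the highest pairs, and IRF2 with GBP1 (-0.798) is the lowest.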

How the data were processed

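The authors sequenced 10 RNA libraries with paired reads of 150 bases and, per the labels, used FastQC, MultiQC, Trim Galore, STAR 2.5.2b on hg38 and featureCounts. The deposited tables hold raw counts and TPM per gene. Among values of 1 to 30 counts, 70.4 to 77.5% were even, against 49.6 to 59.4% among values of 1000 to 2000, so both reads of a pair may often be counted and low counts carry less information than their size. Counts were tested in edgeR 4.0.16 (R 4.3.3) with TMM factors, filterByExpr and a robust quasi-likelihood fit of 5 group means over all libraries. P-values were adjusted by Benjamini-Hochberg within each of 7 comparisons. In counts of 15339 genes simulated for 48 h against 0 h, 67 genes changed 1.5-fold, 67 changed 2-fold and 66 changed 4-fold. The fit called 11.9%, 71.6% and 93.9% of these. It also called 6 unchanged genes. A change under 2-fold that was not called may thus have been missed. In the data 32.3% of genes were called at 48 h, which alters the adjustment of p-values, so these rates need not hold there. Alternatives used DESeq2 1.42.0, limma 3.58.1 on log2(TPM + 1), other filters and single libraries left out. Named genes were the 9 members, up to 3 per list and direction by smallest adjusted p at 48 h, and the 3 best-correlated genes per member. Some genes that these rules name are not reported here. Members and lists were chosen with earlier results of these data known. Whether replicates are separate cultures is not stated beyond their label as biological, so p-values measure the spread between these libraries.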

Additional observations from a re-analysis of the deposited data

Results flagged for a closer look

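Between treated times, 9 differences among the 9 genes passed edgeR's test of the difference itself, with p-values adjusted over all genes tested. At 24 h against 6 h (18.6% of all genes called) these were STAT2 (log2 difference 0.84), IRF7 (0.56), GBP1 (0.44) and GBP2 (2.26). At 48 h against 6 h (33.2%) they were STAT2 (1.44), IRF7 (1.03), GBP1 (0.40) and GBP2 (2.24). At 48 h against 24 h (3.18%) it was STAT2 (0.60). Calls lost when single libraries were left out were IRF7 and GBP1 at 24 h against 6 h, GBP1 at 48 h against 6 h and STAT2 at 48 h against 24 h. With 2 libraries per group, no group was large enough to look for a single outlying value.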

How the results depend on the processing

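No log2 fold change of the 9 genes that was called turned its direction under any alternative, and GBP2 and STAT2 at 48 h against 0 h were called in all 9 alternatives and all 10 fits without 1 library. Counts of called genes at 48 h against 0 h and at 48 h against 6 h stayed within 1.5 times under each alternative. For 6 h against 0 h (1 gene called), the count was 2 with no filter (3.97% of all genes called). It was 0 with DESeq2-type size factors (2.80%) and 3 with DESeq2 on all libraries (6.92%). On the 2 groups alone it was 5 with DESeq2 (22.2%) and 5 with edgeR (20.5%). The count was 0 in each of 3 limma fits on TPM (0.767 to 2.03%) and 0 at adjusted p under 0.01. With 1 library left out the count also changed, as did the share of all genes called. For 12 h (2 genes), it was 1 with DESeq2 (2.08% of all genes) and 0 with edgeR (0%) on the 2 groups alone, 1 in each limma fit, 1 at adjusted p under 0.01, and 0 to 4 with 1 library left out, with 0 without 0 h replicate 1 (1.00% of all genes) and 4 without 12 h replicate 2 (44.9%). For 24 h (3 genes), the count was 1 at adjusted p under 0.01. For 24 h against 6 h (4 genes), it was 2 at adjusted p under 0.01. In both, and at 48 h (3 genes) and 48 h against 6 h (4 genes), it also changed with 1 library left out. The share of all genes called changed in those fits too, so these are not results about the 9 genes alone. For 48 h against 24 h (1 gene), it was 3 with DESeq2 (25.0% of all genes) and 3 with edgeR (25.4%) on the 2 groups alone, 0 in each limma fit, 0 at adjusted p under 0.01, and 0 to 3 with 1 library left out, with 3 without 12 h replicate 1 (21.4%) or 2 (20.9%). A fit that leaves 1 library in a group assumes that it varies like the other groups. The cause of these changes was not tested.

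No common pairing by replicate number was seen, as the correlation between groups of the difference between replicates ran from -0.297 to 0.284. This check cannot show whether some libraries of the same replicate number were handled together. With the number as a replicate block, the count at 6 h was 0 (GBP1 adjusted p = 0.066), and the counts in the other 6 comparisons were as without it. Fold changes between treated times under these alternatives, and correlations without 12 h replicate 1, were added after seeing the data. Counts of the lists other than the effectors were not recomputed under the alternatives.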
